A study of Neurospora crassa with 12 samples.

Results

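Conidiation and the clock-controlled genes of the filamentous fungus *Neurospora crassa* were followed through 9 genes during treatment with heat-stable antifungal factor (HSAF), an antifungal metabolite of the bacterium *Lysobacter enzymogenes*. The 9 genes were taken by their NCU identifiers from a count table of 9729 NCU genes and 11409 features in all. They comprised the regulators *fl* (NCU08726), *acon-2* (NCU00478) and *acon-3* (NCU07617), the conidiation genes *con-6* (NCU08769), *con-8* (NCU09235) and *con-10* (NCU07325), and the clock-controlled genes *ccg-1* (NCU03753), *eas* (NCU08457, also known as *ccg-2*) and *ccg-14* (NCU07787).

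Conidia are the asexual spores of *N. crassa*. They form on aerial hyphae after a mycelium meets air, a change of light or a shortage of nutrients, while a mycelium submerged in rich liquid medium normally forms few. The *fl* gene drives this program, the *acon* genes are needed for its early steps, and the *con* genes are switched on as the conidia develop. The *ccg* genes were first isolated because their RNA cycles with the circadian clock, and several of them also respond to light, glucose or the onset of conidiation.

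RNA was sequenced from mycelium of wild type strain FGSC2489 in 4 groups of 3 libraries. The untreated group, HSAF-0, held libraries A, B and C, and the groups treated with 40 μM HSAF for 5, 30 and 60 min held D, E and F (HSAF-5), G, H and I (HSAF-30) and J, K and L (HSAF-60). All 12 libraries carry the label of an age of 48 h after inoculation, whereas the methods of the study describe a shorter shaken liquid culture, so that the age of the mycelium is uncertain. The labels also describe growth on slants, so that it is uncertain whether the mycelium grew on a surface or submerged in liquid. No untreated mycelium was sampled at 5, 30 or 60 min, so that the effect of HSAF and that of time in culture cannot be told apart. The study describes the libraries of a group as biological replicates, and the labels do not say whether they came from separate cultures. The p-values set the difference between groups against a spread between libraries estimated over all 4 groups, whatever its source. In RNA from whole mycelium, fewer cells of a type and less RNA per cell cannot be told apart.

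Total counts lay between 11517462 and 15698448 per library, and counts on NCU genes between 790513 and 11265740. Library I of HSAF-30 was the shallowest by far, since the next library held 2586940 counts on NCU genes and 93.7% of all counts of library I fell on 2 features named newGene_189 and newGene_190, against 25.2 to 80.4% in the other 11 libraries. Results for HSAF-30 are therefore given with and without library I. The hyphal markers *hex-1* (Woronin body), *act* (actin), *Bml* (beta-tubulin) and *tef-1* (elongation factor) were present in every library, with a summed level of 17861 to 20342 CPM (counts scaled to the size of the library) in HSAF-0, 16552 to 19212 in HSAF-5, 15404 to 21394 in HSAF-30 and 9612 to 13171 in HSAF-60. The sum hides markers that moved apart. In HSAF-0 most of it was *tef-1* (13587 to 16171 CPM), which lay at 5689 to 9470 in HSAF-60. *Bml* fell likewise, from 374 to 409 CPM in HSAF-0 to 131 to 194 in HSAF-60. By contrast, *hex-1* lay at 1615 to 2769 CPM in HSAF-0 and 4112 to 8253 in HSAF-30. For *act* the levels were 1071 to 1131 CPM in HSAF-0 and 1978 to 2645 in HSAF-30. The 5 markers of conidia and aerial hyphae, *con-6*, *con-8*, *con-10*, *con-13* and *eas*, of which 4 are members, summed to 24.8 to 33.7 CPM in HSAF-0, 33.2 to 163 in HSAF-5, 12.4 to 43.1 in HSAF-30 and 12.4 to 41.2 in HSAF-60. Among them *con-13* had no count in 7 libraries, *con-6* in 6 and *con-10* in 5. The part of spores or of other structures of the mycelium in the results was not tested.

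A gene was called at an adjusted p under 0.01 and a change of at least 2-fold, in an edgeR quasi-likelihood test of all 7582 NCU genes with enough counts. Of the 9 members, 8 had enough counts, and *con-6*, with 33 counts in all, had not. In HSAF-0 no library held 10 counts of *acon-3* or *con-10*, so these genes passed the filter through treated libraries, where they were higher. Their rise against HSAF-0 is thus not independent of the filter, nor are the member counts and medians that include them. After 5 min, *acon-2* and *ccg-1* were called higher than in HSAF-0, which is 2 of 8 members, while 9.72% of all tested genes were called higher. No member was called lower, 0 having an unadjusted p under 0.05 in that direction and 0 being called by DESeq2 or limma, while 2.27% of all tested genes were called lower. DESeq2 called 405 of 9729 genes lower there, and limma 0 to 706, depending on the FPKM values used. After 30 min, *acon-3*, *acon-2*, *con-10* and *ccg-1* were higher and *fl* was lower, which is 4 and 1 of 8 members, against 19.1% and 15.2% of all tested genes. The members called in at least 1 of the 5 comparisons made thus numbered 6 of 8, against 48.6% of all tested genes, the exceptions being *con-8* and *eas*.

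After 60 min, edgeR called 0 members higher and 0 lower than in HSAF-0, against 9.38% and 3.53% of all tested genes. At an unadjusted p under 0.05, 4 members were higher and 0 lower. DESeq2 called 3 higher and 0 lower, and limma called 0 to 3 higher and 0 lower, depending on the FPKM values used. Over all genes DESeq2 called 946 of 9729 higher and 466 lower. Limma called from 222 of 9047 to 851 of 7203 higher and 8 to 263 lower. Between 5 and 30 min, *acon-3* alone was called higher (1 of 8 members, against 9.02% of all tested genes), and 0 members were called lower (against 7.81%), although 3 had an unadjusted p under 0.05 in that direction, DESeq2 called 2 and limma 0 to 2. Over all genes, DESeq2 called 860 of 9729 lower in that comparison and limma from 1 of 9047 to 540 of 7203. Between 30 and 60 min, *ccg-14* was called higher and *acon-2* and *acon-3* lower, which is 1 and 2 of 8 members, against 13.4% and 13.8% of all tested genes. The comparisons that have HSAF-0 or HSAF-30 in common share those libraries and are not independent of each other.

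The median log2 fold change of the 8 tested members was 1.48 after 5 min, 1.33 after 30 min and 0.60 after 60 min, against -0.11, -0.17 and 0.0019 over all tested genes. Between 5 and 30 min it was -0.41 (all genes -0.11) and between 30 and 60 min it was -0.17 (all genes 0.095). These medians are a description, since the members were chosen with earlier results of these data known. In addition, *acon-3* and *con-10* passed the filter through treated libraries. Without library I, the members called higher numbered 3 after 5 min, 4 after 30 min, 2 after 60 min, 2 between 5 and 30 min and 1 between 30 and 60 min, and those called lower numbered 0, 0, 0, 0 and 2. In that fit of 7788 genes, 10.6%, 19.6%, 10.3%, 8.59% and 11.8% of all tested genes were called higher and 3.26%, 12.8%, 5.17%, 5.29% and 15.5% lower. Leaving out other single libraries also moved these counts. The members called higher after 5 min were 1 without A, C, D, E or F, and those after 30 min were 2 without C or G. Of 7708 to 7787 genes tested in these fits, 524, 498, 618, 604 and 604 were higher after 5 min, against 737 of 7582. After 30 min 1116 and 1232 were higher without C and G, against 1449. Among the members higher after 30 min, only *con-10* dropped out without A, D, J, K or L. Over all genes 1190, 1379, 1464, 1369 and 1415 were higher in these fits. After 30 min 0 members were lower without A, B, C, G or I, and after 60 min 2 were higher without H. Over all genes 861, 759, 829, 825 and 998 were lower after 30 min, against 1153. After 60 min 855 of 7711 were higher without H, against 711. From 5 to 30 min 0 members were higher without F, while 2 were lower without H and 1 without J or K. Over all genes 416 of 7726 were higher without F, against 684, and 912, 619 and 493 lower without H, J and K, against 592. From 30 to 60 min 0 members were higher without G and 2 without H. Over all genes 745 and 1005 were higher in these fits, against 1014. The libraries of the groups compared did not overlap in CPM for 6 of the 8 members after 5 min, 5 after 30 min and 5 after 60 min, against 48.4%, 57.5% and 51.7% of all tested genes. They did not overlap for 4 members from 5 to 30 min and 3 from 30 to 60 min, against 39.7% and 48.4%.

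**Figure D1:**
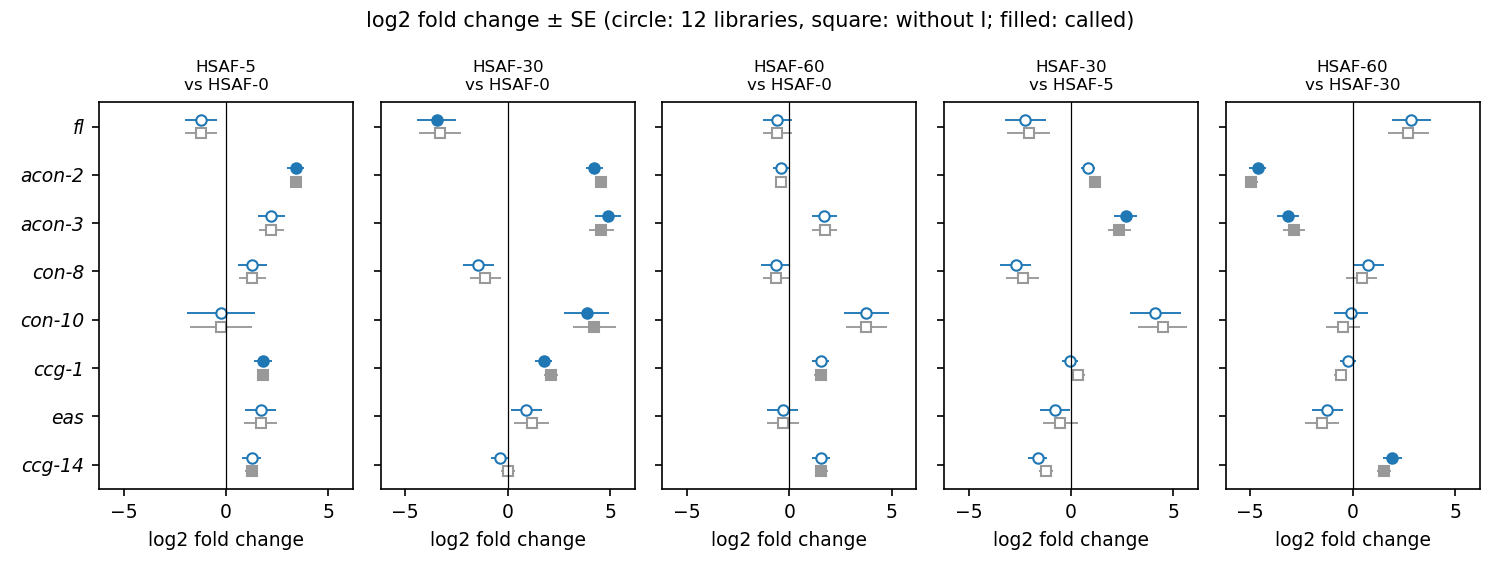
log2 fold change of the 8 tested members (rows) in 5 comparisons (panels), from the fit to 12 libraries (circles) and without library I (squares), with bars of 1 SE and filled symbols for calls. *acon-2* and *acon-3* lie far right of 0 at 30 min (4.23 and 4.88) and far left between 30 and 60 min (-4.64 and -3.17), while *con-8* and *eas* have no filled symbol in any panel.

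The gene *acon-2* takes its name from aconidiate mutants, in which conidiation stops early, and is annotated in tables of the study with cyclic nucleotide phosphodiesterase activity. In HSAF-0 it lay at 3.86, 2.78 and 2.65 CPM in libraries A, B and C, and in HSAF-5 at 35.5, 27.4 and 32.8 CPM in D, E and F. It reached 71.3, 70.1 and 25.8 CPM in G, H and I of HSAF-30, and lay at 2.60, 2.25 and 1.92 CPM in J, K and L of HSAF-60. Every library of HSAF-5 and HSAF-30 was above every library of the other groups, and library I was the lowest of these 6. The change was 10.5-fold after 5 min (log2 fold change 3.40 ± 0.41 SE, adjusted p = 1.36e-05) and 18.8-fold after 30 min (4.23 ± 0.41, adjusted p = 8.48e-07). From 30 to 60 min *acon-2* fell by 4.64 ± 0.42 on the log2 scale (adjusted p = 4.45e-06). These 3 calls held in all 12 fits that left out 1 library each. After 60 min the difference from HSAF-0 was -0.41 ± 0.41 (adjusted p = 0.512). From 5 to 30 min it was 0.84 ± 0.35 (adjusted p = 0.0817), and without library I the gene was called higher in this comparison (1.15 ± 0.28, adjusted p = 0.00772).

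The *acon-3* gene, also found through aconidiate mutants, encodes a homologue of the developmental regulator medA of *Aspergillus nidulans*. It was barely detected in HSAF-0, with 0, 0.70 and 0.77 CPM from 0, 5 and 7 counts, and it lay at 3.39, 3.01 and 2.12 CPM in HSAF-5. In HSAF-30 the libraries G, H and I held 13.8, 14.6 and 26.8 CPM, and in HSAF-60 the libraries J, K and L held 1.09, 2.45 and 2.49 CPM. HSAF-30 stood above all other libraries, and each treated library was above each untreated one, but HSAF-5 and HSAF-60 overlapped. The change after 30 min was 29.5-fold (log2 fold change 4.88 ± 0.62, adjusted p = 1.14e-05), and 4.57 ± 0.62 (adjusted p = 4.26e-05) without library I. The summed and scaled counts of 199 against 12 gave a ratio of 24.5 with an exact 95% interval of 13.7 to 48.3, which covers counting error only. Between 5 and 30 min *acon-3* rose by 2.67 ± 0.55 (adjusted p = 0.00197), a call that was lost without library F (2.52, adjusted p = 0.012). It then fell by 3.17 ± 0.54 between 30 and 60 min (adjusted p = 0.000262). Its calls at 30 min against HSAF-0 and between 30 and 60 min held whichever library was left out. The values after 5 min (2.21 ± 0.65, adjusted p = 0.0224) and after 60 min (1.71 ± 0.63, adjusted p = 0.0564) against HSAF-0 did not pass.

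The *fl* gene (fluffy) encodes a zinc cluster transcription factor that is the main activator of conidiation. At 30 min, where the *acon* genes were highest, its level was lowest. In HSAF-0 it lay at 8.36, 4.73 and 4.85 CPM and in HSAF-5 at 3.81, 2.47 and 1.54 CPM. In HSAF-30 only library H had any count, 7 in number (1.15 CPM), while G and I had 0, and in HSAF-60 libraries J, K and L held 7.17, 0.82 and 3.16 CPM. A count of 0 allows up to 0.505 CPM in library G and 2.87 CPM in the shallow library I, on a limit of 3 counts per library. HSAF-30 lay below every library of HSAF-0 and HSAF-5, and HSAF-60 spanned 8.78-fold. The log2 fold change after 30 min was -3.47 ± 0.95 (adjusted p = 0.00647), and the ratio of scaled counts, 7 against 104, was 0.0995 with an interval of 0.0391 to 0.212. This call was lost without library A, B, C, G or I, with log2 fold changes of -3.18, -3.56, -3.60, -2.69 and -3.30 and adjusted p of 0.021, 0.0131, 0.0121, 0.0341 and 0.0156. Without H, where HSAF-30 is left with no count, the fit gave an adjusted p of 0.00167. The value between 30 and 60 min, 2.87 ± 0.94 (adjusted p = 0.0218), did not pass, but did without library H (adjusted p = 0.00498) or K (3.29, adjusted p = 0.0097). At 5 and 60 min the differences from HSAF-0 were -1.23 ± 0.78 (adjusted p = 0.277) and -0.60 ± 0.71 (adjusted p = 0.578).

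**Figure D2:**
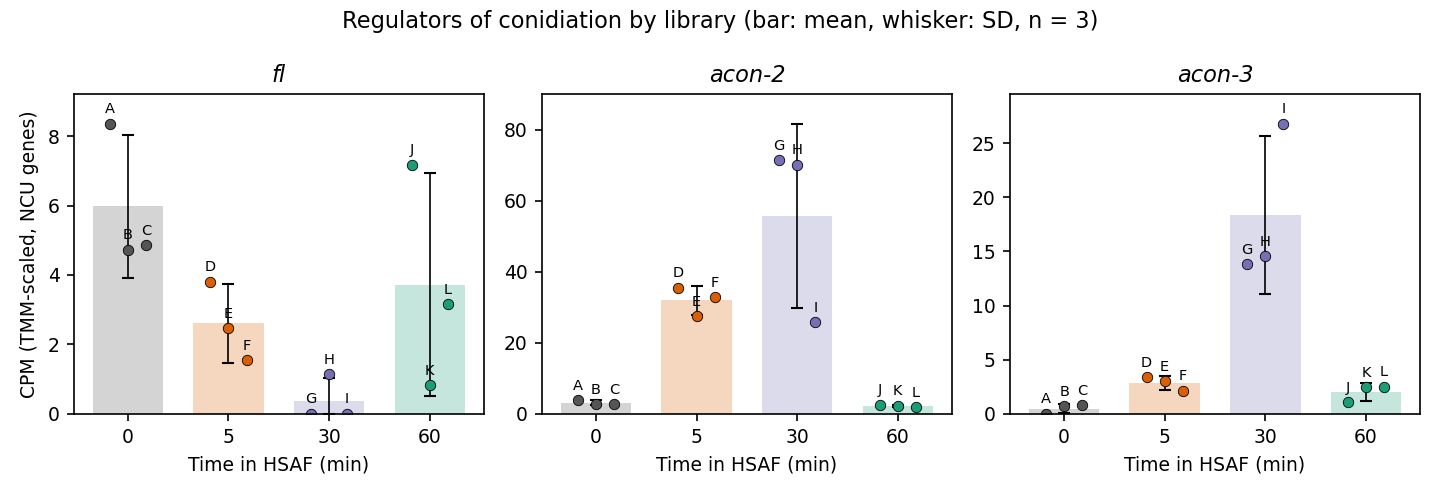
CPM (TMM-scaled, vertical axes from 0) of *fl*, *acon-2* and *acon-3* at 0, 5, 30 and 60 min of HSAF; points are libraries A to L, bars the mean and whiskers the SD of 3 libraries, stopped at 0. *acon-2* and *acon-3* peak at 30 min, where *fl* has a count in library H alone.

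The conidiation genes *con-6*, *con-8* and *con-10* were isolated as transcripts of conidiating cultures, and their products are found in developing conidia. The transcript of *con-8* was the most abundant of the 3 in HSAF-0, with 17.4, 18.7 and 12.9 CPM in A, B and C, and it lay at 31.7, 61.1 and 25.3 CPM in D, E and F. In HSAF-30 it held 4.04, 11.1 and 0 CPM in G, H and I, and in HSAF-60 it held 23.0, 1.84 and 4.89 CPM in J, K and L. The libraries of HSAF-5 were all above those of HSAF-0, and those of HSAF-30 all below, while HSAF-60 spanned 12.5-fold from K to J. None of these differences was called. Against HSAF-0 they were 1.27 ± 0.71 (adjusted p = 0.211) after 5 min, -1.43 ± 0.76 (adjusted p = 0.126) after 30 min and -0.67 ± 0.70 (adjusted p = 0.527) after 60 min. From 5 to 30 min the difference was -2.70 ± 0.77 (adjusted p = 0.0145), and it passed without library H (-3.73, adjusted p = 0.00509), J (-2.70, adjusted p = 0.00298) or K (-2.71, adjusted p = 0.00774), and also in DESeq2. Without library I it was -2.37 ± 0.80 (adjusted p = 0.0395).

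The *con-10* transcript was close to absent at the start, with 4 counts in HSAF-0, all in library B (0.56 CPM), and 2 counts in HSAF-5, both in library F (0.39 CPM). It was detected in G and H of HSAF-30 at 6.39 and 1.96 CPM, from 38 and 12 counts, and in J, K and L of HSAF-60 at 2.19, 3.27 and 3.74 CPM. Library I had 0 counts, which allows up to 2.87 CPM. All 5 libraries with more than 4 counts were thus from 30 or 60 min. The change after 30 min was called (log2 fold change 3.86 ± 1.11, adjusted p = 0.00891; 4.22 ± 1.05, adjusted p = 0.00459 without library I), with a ratio of scaled counts of 18.5 and an interval of 6.79 to 70.5. The call was lost without library A, C, D, G, J, K or L, with log2 fold changes of 3.56, 3.12, 3.86, 2.65, 3.83, 3.84 and 3.83 and adjusted p of 0.0312, 0.0506, 0.0118, 0.101, 0.0118, 0.0153 and 0.015. Without library B, where HSAF-0 is left with no count, the adjusted p was 0.0055. Upper quartile factors, library size alone and every limma fit also ended the call, which held in 4 of 10 alternative settings. After 60 min the fitted value was 3.75 ± 1.09 (adjusted p = 0.0194) and the ratio 14.1 with an interval of 5.30 to 52.7. Between 30 and 60 min the difference was -0.10 ± 0.83 (adjusted p = 0.932). The neighbour of *con-10* in the NC12 annotation is *con-13*, another conidiation gene, which had 19 counts in all and was not tested.

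The *con-6* transcript had 33 counts in 6 of the 12 libraries, at most 8 in any one, and its highest level was 1.37 CPM in library E. Libraries C, E, F, G, H and J had 8, 5, 4, 8, 2 and 6 counts and the others 0, so that every group held libraries with and without it. The group sums of 8, 9, 10 and 6 counts gave ratios to HSAF-0 of 1.95 (interval 0.666 to 5.79), 1.85 (0.657 to 5.39) and 0.485 (0.139 to 1.59), so no change from HSAF-0 was detectable at this depth. Between HSAF-60 and HSAF-30 the ratio was 0.262 (0.0783 to 0.796). These intervals cover counting error only, and within HSAF-60 library J held all 6 counts.

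**Figure D3:**
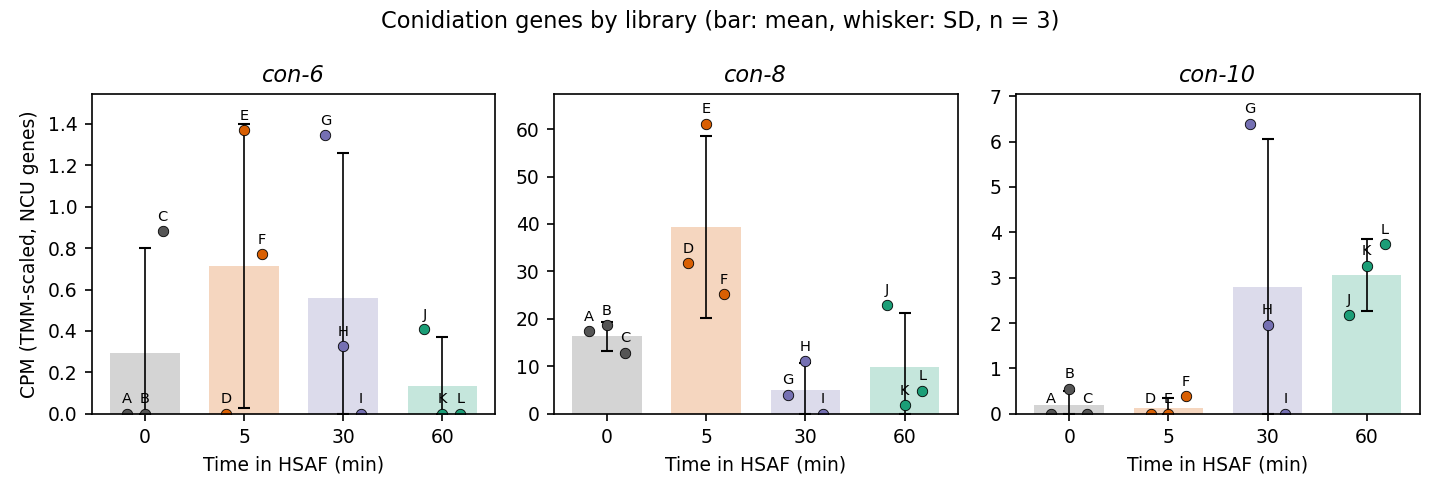
CPM (TMM-scaled, vertical axes from 0) of *con-6*, *con-8* and *con-10* at 0, 5, 30 and 60 min of HSAF; points are libraries A to L, bars the mean and whiskers the SD of 3 libraries, stopped at 0. *con-8* has its highest point, 61.1 CPM, in library E, and *con-10* exceeds 1 CPM in G, H, J, K and L alone.

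Among the clock-controlled genes, *ccg-1* (also *grg-1*, a glucose-repressible gene) was higher at each treated time. Its levels were 157, 163 and 87.1 CPM in HSAF-0 and 413, 559 and 453 CPM in HSAF-5. In HSAF-30 it held 589, 596 and 190 CPM in G, H and I, and in HSAF-60 457, 252 and 468 CPM in J, K and L. Each treated library was above each untreated one, with I the lowest of the treated libraries, and the 3 treated groups overlapped. The change was 3.50-fold after 5 min (log2 fold change 1.81 ± 0.42, adjusted p = 0.00513) and 3.39-fold after 30 min (1.76 ± 0.42, adjusted p = 0.00242). The call at 5 min was lost without library A, C, D, E or F, with log2 fold changes of 1.92, 1.57, 1.90, 1.69 and 1.87 and adjusted p of 0.0178, 0.0367, 0.0115, 0.02 and 0.0127, and under library size alone. That at 30 min was lost without library C (1.52, adjusted p = 0.0186) or G (1.54, adjusted p = 0.0119). Limma on deposited FPKM, which called far fewer genes in all than edgeR at these times, called *ccg-1* at neither of them. After 60 min the change was 1.53 ± 0.41 (adjusted p = 0.0128) and missed the threshold, but passed it without library I (1.54 ± 0.31, adjusted p = 0.00228) or H (1.54, adjusted p = 0.00821). Between treated groups the differences were -0.05 ± 0.41 from 5 to 30 min (adjusted p = 0.942) and -0.23 ± 0.41 from 30 to 60 min (adjusted p = 0.67).

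The *ccg-14* gene encodes a small secreted protein of the cerato-platanin family and was by far the most abundant member, taking 0.278% of the counts on NCU genes in library I and 2.93% in library K. It lay at 6311, 9803 and 6521 CPM in HSAF-0 and at 14268, 26210 and 13445 CPM in HSAF-5. In HSAF-30 it lay at 5632, 9660 and 2105 CPM in G, H and I, and in HSAF-60 at 21440, 24139 and 20743 CPM in J, K and L. HSAF-60 and HSAF-5 were above all libraries of HSAF-0 and HSAF-30, the level thus being high, low and high again along the course. Only the last step was called, with a log2 fold change of 1.93 ± 0.46 from 30 to 60 min (3.81-fold, adjusted p = 0.00322; 1.53 ± 0.36, adjusted p = 0.00397 without library I). It was lost without library G (1.91, adjusted p = 0.0142) or K (1.86, adjusted p = 0.0114), and was 2.52 without H (adjusted p = 0.000692). The difference from 5 to 30 min was -1.63 ± 0.46 (adjusted p = 0.0128), and passed without library H (-2.22, adjusted p = 0.00172). After 5 min the difference from HSAF-0 was 1.25 ± 0.45 (adjusted p = 0.0566) and after 60 min 1.55 ± 0.45 (adjusted p = 0.0201). Both passed without library I, with adjusted p of 0.00928 and 0.00233, and the latter also without H (1.55, adjusted p = 0.00721). After 30 min the difference from HSAF-0 was -0.38 ± 0.44 (adjusted p = 0.495), and 0.023 without library I.

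The *eas* gene encodes the hydrophobin that coats conidia with a water-repellent rodlet layer. It varied more within groups than between them. Its levels were 13.2, 5.57 and 19.95 CPM in HSAF-0 and 19.0, 99.5 and 6.75 CPM in HSAF-5, where E was 14.7-fold above F. In HSAF-30 it held 28.6, 29.3 and 12.4 CPM and in HSAF-60 15.4, 12.7 and 2.78 CPM. HSAF-0 overlapped with every treated group. The log2 fold change after 5 min was 1.69 ± 0.77 (adjusted p = 0.126) and -0.039 without library E. After 30 and 60 min the differences from HSAF-0 were 0.91 ± 0.77 (adjusted p = 0.336) and -0.33 ± 0.76 (adjusted p = 0.787). Library E was the highest of HSAF-5 also for *con-8*, *ccg-1* and *ccg-14*, and library J the highest of HSAF-60 for *eas*, *con-8* and *fl*.

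**Figure D4:**
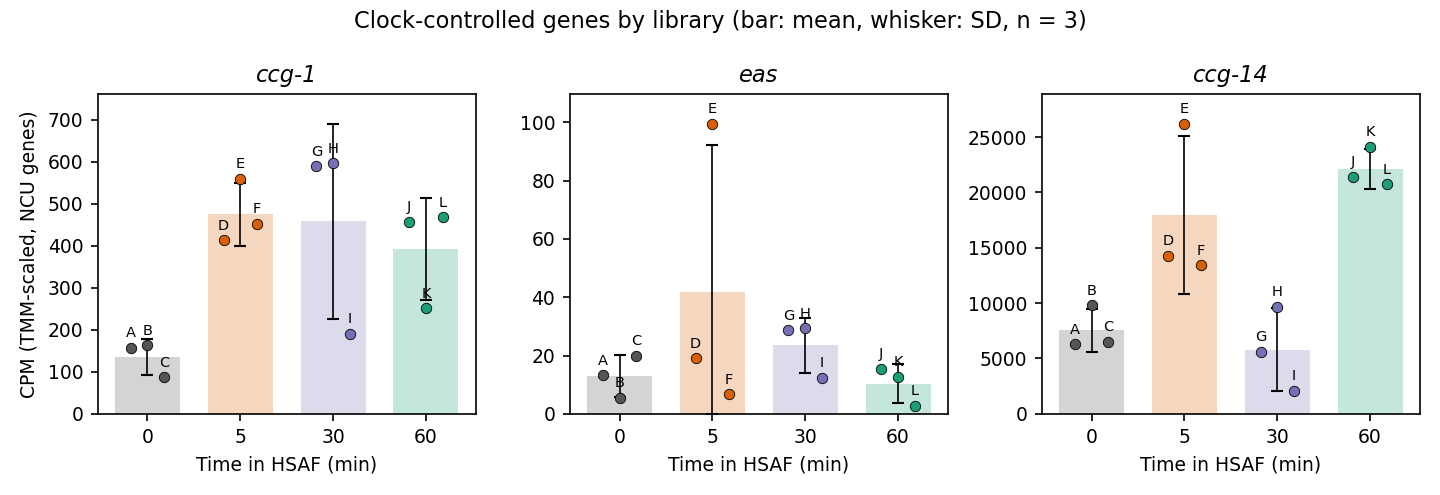
CPM (TMM-scaled, vertical axes from 0) of *ccg-1*, *eas* and *ccg-14* at 0, 5, 30 and 60 min of HSAF; points are libraries A to L, bars the mean and whiskers the SD of 3 libraries, stopped at 0. The 3 untreated libraries of *ccg-1* lie below all treated ones, the point of library E stands apart for *eas* (99.5 CPM), and *ccg-14* is high at 5 and 60 min.

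Levels of different genes were compared per length, as the deposited FPKM after rescaling to NCU counts (mean ± SD, n = 3). In every group *ccg-14* came first and *ccg-1* second, with no overlap between them or with the gene next in order. The level of *ccg-14* was 3327 ± 846 FPKM in HSAF-0 and 10757 ± 1257 in HSAF-60, and that of *ccg-1* was 214 ± 77.6 and 672 ± 214. In HSAF-0 they were followed by *con-8* (11.0 ± 2.64 FPKM), *eas* (7.29 ± 3.78), *fl* (1.84 ± 0.791), *acon-2* (0.556 ± 0.165), *con-6*, *con-10* and *acon-3* (0.198 ± 0.172). Here *con-8* overlapped with *eas*, and *acon-2*, *con-6*, *con-10* and *acon-3* overlapped from one to the next. In HSAF-5 the third to ninth were *con-8*, *eas*, *acon-2*, *acon-3*, *fl*, *con-6* and *con-10*, of which only *acon-2* and *acon-3* were neighbours without overlap. In HSAF-30 *acon-2* (8.01 ± 2.21 FPKM) and *acon-3* (7.60 ± 5.29) moved up to the places just behind *eas* (10.8 ± 2.25), and *fl* came last (0.079 ± 0.137). All neighbours from *eas* down overlapped there, but without library I *eas*, *acon-2* and *acon-3* were apart, at 12.1, 9.28 and 4.55 FPKM. In HSAF-60 *con-10* (4.71 ± 0.989 FPKM) stood behind *con-8* and *eas*, with which it overlapped, and above *fl*, *acon-3*, *acon-2* and *con-6*.

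A wider list of 30 other genes was read in the same fit. They are named for conidiation, control by the clock, tall aerial hyphae (*tah*) or vegetative and asexual development (*vad*). They were found by their symbol or synonym in the reference (*rco-3*, for example, is listed there as *sor-4*). Of these, 28 were tested and 12 were called at least once (against 48.6% of all tested genes), while *con-13* and *vad-1* (50 counts) were too low. After 5 min 5 were called higher (against 9.72% of all tested genes) and 0 lower (against 2.27%), with 2 lower at an unadjusted p under 0.05, 0 in DESeq2 and 0 or 1 in limma. After 30 min 7 were higher and 2 lower, against 19.1% and 15.2% of all tested genes. After 60 min 3 were higher and 0 lower (against 9.38% and 3.53%), with 2 lower at an unadjusted p under 0.05, 1 in DESeq2 and 0 in limma. Between 5 and 30 min 1 was higher and 0 lower (against 9.02% and 7.81%), with 7 lower at an unadjusted p under 0.05, 4 in DESeq2 and 0 to 2 in limma. Over all genes, DESeq2 called 405, 466 and 860 of 9729 lower after 5 min, after 60 min and between 5 and 30 min. Limma called 0 to 706, 8 to 263 and 1 to 540 lower. From 30 to 60 min 3 of the list were higher and 4 lower in edgeR, against 13.4% and 13.8% of all tested genes. Their median log2 fold changes were 0.76, 0.64, -0.24, -0.34 and -0.56 in the order of the comparisons above. Without library H 3 were higher and 4 lower between 5 and 30 min, 2 were lower after 60 min and 2 were lower between 30 and 60 min. Over all 7711 genes of that fit, 795 were higher and 912 lower between 5 and 30 min, against 684 and 592 of 7582. After 60 min 432 were lower, against 268, and between 30 and 60 min 914, against 1045. Without library I 8 of the list were lower between 30 and 60 min, and without A, C or L 2 were higher after 60 min. Over all genes 1209 of 7788 were lower between 30 and 60 min without I. After 60 min 431, 388 and 443 were higher without A, C and L, against 711. Without A or C 1 of the list was lower after 30 min, and without E 1 was lower after 5 min. Without C, J, K or L 2 were higher between 30 and 60 min. Over all genes 861 and 829 were lower after 30 min, against 1153, and 69 after 5 min, against 172. Between 30 and 60 min 901, 780, 780 and 805 were higher, against 1014.

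The largest of these changes was that of *ccg-8* (NCU09686), a clock-controlled gene, which lay at 7.71 to 11.8 CPM in HSAF-0, 85.9 to 93.9 in HSAF-5, 84.2 to 189 in HSAF-30 and 9.43 to 19.2 in HSAF-60. It rose by 3.20 ± 0.38 after 5 min (adjusted p = 1.38e-05) and by 3.96 ± 0.39 after 30 min (adjusted p = 1.02e-06) and fell by 3.28 ± 0.38 between 30 and 60 min (adjusted p = 1.38e-05). These times of high level are those of *acon-2*. A rise at 5 and 30 min was also called for *nrc-2* (1.87 and 1.54), a protein kinase gene whose mutants conidiate without the usual repression, *rco-3* (1.93 and 1.60), a glucose sensor gene that restrains conidiation, and *ccg-15* (1.33 and 1.81), an anchored cell wall protein gene. The rise of *ccg-15* at 5 min was lost without A, B, C, D, E, F, K or L (adjusted p up to 0.0414), and that of *rco-3* at 30 min without C (adjusted p = 0.0106). From 30 to 60 min *nrc-2* fell by 1.24 (lost without G, H, J or K, adjusted p up to 0.0199) and *ccg-15* by 1.69. The tall aerial hyphae gene *tah-1* rose at 5 min (2.87 ± 0.48, adjusted p = 0.000365) and was not called after 30 min (1.35, adjusted p = 0.023) or 60 min (-0.15, adjusted p = 0.845).

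A later rise was called for *csp-2*, a grainyhead-like transcription factor gene needed for the separation of conidia. It lay at 28.0 to 40.6 CPM in HSAF-0, 48.2 to 63.3 in HSAF-5, 137 to 255 in HSAF-30 and 95.6 to 257 in HSAF-60. The log2 fold changes were 2.72 ± 0.39 after 30 min (adjusted p = 3.1e-05), 2.50 ± 0.38 after 60 min (adjusted p = 0.000222) and 2.00 ± 0.38 between 5 and 30 min (adjusted p = 0.00103). The abundant *ccg-16* rose by 2.72 after 30 min and 2.49 after 60 min, the latter lost without A, C or L (adjusted p up to 0.0221). The trehalose synthase gene *ccg-9* was called higher at 60 min (1.82 against HSAF-0 and 2.12 against HSAF-30) and not after 5 min (0.77, adjusted p = 0.0737) or 30 min (-0.30, adjusted p = 0.427). Trehalose is a storage sugar of conidia.

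Lower levels after 30 min were called for *chc-1* (-2.68 ± 0.49, adjusted p = 0.000283), a gene named for conidiation at high CO2, and *vad-6* (-2.05 ± 0.53, adjusted p = 0.00431), named for vegetative and asexual development. The call of *vad-6* was lost without A, C or H (adjusted p up to 0.0169). The level of *vad-6* rose by 1.96 between 30 and 60 min (lost without C, H, J, K or L, adjusted p up to 0.0203) and *fld*, fluffyoid, by 2.05 (adjusted p = 0.000525). The gene *vad-5* rose by 2.35 after 30 min (lost without B, C or H, adjusted p up to 0.0277) and fell by 2.73 between 30 and 60 min (lost without H or L, adjusted p up to 0.0103).

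**Figure D5:**
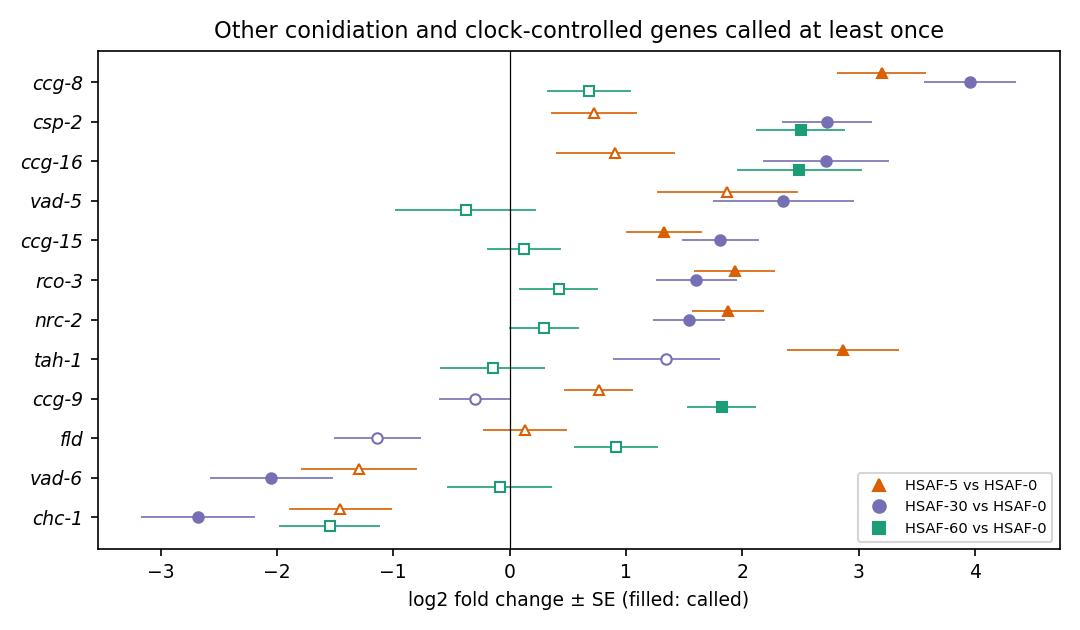
log2 fold change against HSAF-0 (horizontal axis, bars of 1 SE) of the 12 genes of the wider list called at least once, after 5 min (triangles), 30 min (circles) and 60 min (squares), filled where called. *ccg-8* is far right of 0 at 5 and 30 min and near 0 at 60 min (0.68), *csp-2* and *ccg-16* are filled at 30 and 60 min, and *chc-1* and *vad-6* are left of 0.

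The genes whose profile over the 12 libraries was most like that of each tested member were found by Pearson correlation of log2 CPM. They are given as a description, since libraries of a time point share their treatment and depth differs between libraries. The closest were NCU02219 (r = 0.992) and NCU06252 (0.987) for *acon-2*, NCU02724 (0.980) and NCU03818 (0.956) for *acon-3*, and NCU01768 (0.963) and *tca-16* (0.955) for *fl*. For *con-8* they were NCU00175 (0.967) and NCU06328 (0.963), and for *con-10* NCU06933 (0.931) and NCU16387 (0.923). For *ccg-1* they were NCU02179 (0.953) and NCU05401 (0.939), and for *ccg-14* NCU08708 (0.971) and NCU01914 (0.963). The profile of *eas* had no close match, its nearest being *matA-1* (0.803) and *aod-5* (0.793). Between members, r was largest in absolute value for *fl* with *acon-3* (-0.87), *fl* with *con-8* (0.72) and *acon-2* with *acon-3* (0.71, n = 12). All other pairs of members lay between -0.59 and 0.57.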

How the data were processed

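Reads of 12 libraries were trimmed with Trimmomatic by the authors. The authors deposited raw counts per gene and FPKM of the same features, scaled to all features. Which aligner, counter and genome build were used, and whether counting used strand, is not given in the sources used here. Groups were taken from the labels. The 9 members and the lists of genes were chosen with earlier results of these data known.

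The deposited counts of NCU genes entered edgeR 4.0.16 under R 4.3.3 (TMM, filterByExpr with a minimum count of 10, quasi-likelihood test, 1 term per time point, Benjamini-Hochberg adjustment over all genes tested). SE is the absolute log2 fold change divided by the square root of F. CPM are TMM-scaled. FPKM were rescaled by the ratio of total to NCU counts. Ratios of summed counts carry exact binomial intervals (95%), and floors rest on 3 counts. DESeq2 1.42.0 and limma 3.58.1, on log2(FPKM + 1), served as alternatives with other scalings, filters and left-out libraries. Tables and figures were made with pandas 2.3.3, numpy 2.4.6, scipy 1.17.1 and matplotlib 3.10.9 under Python 3.11.15.

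Named were all members, each gene of the wider list called at least once and, for each tested member, the 2 genes of highest correlation (log2 CPM with a prior count of 2). Depth ranged from 790513 to 11265740 counts on NCU genes. The reference (NC12) gave symbols and neighbours. No replicate libraries were duplicates by a chi-square test of their counts. The study's own comparisons were not used here.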

Additional observations from a re-analysis of the deposited data

How the results depend on the processing

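No paired analysis was possible because the labels give each library only a letter, and no number links libraries of different time points. Among 894 alternative values of the changes, 770 kept their direction and side of the threshold, 47 lost and 37 gained a call, and 40 changed sign, none of them a called value. Limma on log2(FPKM + 1), log2(FPKM + 0.1) and log2(FPKM + 1) with no filter called 0 members higher after 5 min, 1 higher and 0 lower after 30 min, and 0 higher between 5 and 30 min and between 30 and 60 min, where it called 1, 1 and 0 lower. After 5 min these fits called 42 of 6197, 63 of 6197 and 1 of 9047 genes in all, against 909 of 7582 in edgeR. After 30 min they called 451, 602 and 92, against 2602. Between 5 and 30 min they called 75, 88 and 3, against 1276, and between 30 and 60 min 762, 726 and 461, against 2059. After 60 min the first and second of these limma fits called 1 member higher, against 366 and 302 of 6197 genes. Neither of them tested *fl* or *acon-3*, whose FPKM reached 1 in fewer than 3 libraries, so that no call of these genes was possible there. Library size alone called 1 higher after 5 min and 2 after 60 min. Over all genes it called 533 and 797 of 7582 higher, against 737 and 711 in the main fit. After 60 min, DESeq2, limma on rescaled FPKM, the fit of only 2 groups and an adjusted p under 0.05 with no fold limit called 3 higher, and DESeq2 size factors, no filter and all deposited features called 1. Over all genes, DESeq2, rescaled FPKM and only 2 groups called 946 of 9729, 851 of 7203 and 980 of 7425 higher. DESeq2 size factors, no filter and all features called 747 of 7582, 765 of 9047 and 744 of 7464 higher. For the adjusted p under 0.05 no share over all genes is given. Between 5 and 30 min, the adjusted p under 0.05 called 2 higher and 2 lower, DESeq2 and limma on rescaled FPKM 2 lower, and no filter, library size alone, upper quartile factors and DESeq2 size factors 1 lower. Over all genes, DESeq2 and rescaled FPKM called 860 of 9729 and 540 of 7203 lower. No filter called 616 of 9047 lower, and the other scalings 451, 698 and 650 of 7582. Between 30 and 60 min, DESeq2 and the adjusted p under 0.05 called 2 higher and the fit to the 2 groups 0. Over all genes, DESeq2 called 1341 of 9729 higher and the fit to the 2 groups 566 of 7238. The cause was not tested.

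With no single library left out, these values changed sign. After 60 min, limma on log2(FPKM + 1), log2(FPKM + 0.1) and log2(FPKM + 1) with no filter gave 0.032, 0.091 and 0.032 for *acon-2* and 0.10, 0.11 and 0.10 for *eas*, and the last gave 0.019 for *fl*. From 5 to 30 min *ccg-1* was 0.12 under library size alone, 0.034 in the fit to 2 groups and 0.071 on rescaled FPKM, and *eas* was 0.038 on log2(FPKM + 1) with and without the filter and 0.078 on rescaled FPKM. From 30 to 60 min *con-10* was 0.091 with upper quartile factors, 0.42 with library size alone, 0.11 in DESeq2, 0.70, 1.72, 0.70 and 1.01 in limma on log2(FPKM + 1), log2(FPKM + 0.1), no filter and rescaled FPKM, and *ccg-1* was 0.24 with library size alone and 1.18, 1.19, 1.18 and 0.25 in the same limma fits.

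With 1 library left out at a time, the members called higher ranged from 1 to 3 after 5 min, 2 to 4 after 30 min, 0 to 2 after 60 min, 0 to 2 between 5 and 30 min and 0 to 2 between 30 and 60 min, and those called lower from 0 to 1 after 30 min and 0 to 2 between 5 and 30 min. Over all genes, those called higher ranged from 498 to 828, 1116 to 1529, 388 to 855, 379 to 795 and 745 to 1005. Genes called lower ranged from 759 to 1302 after 30 min and 291 to 912 between 5 and 30 min. From 7683 to 7788 genes were tested. The log2 fold changes ranged from -3.46 to 3.20 for *con-10* and -0.039 to 2.25 for *eas* after 5 min, from -0.97 to 0.023 for *ccg-14* after 30 min and from -0.79 to 0.17 for *eas* after 60 min. They ranged from -0.28 to 0.32 for *ccg-1* and -1.26 to 1.03 for *eas* between 5 and 30 min, and from -0.78 to 1.79 for *con-8*, -0.45 to 1.11 for *con-10* and -0.59 to 0.012 for *ccg-1* between 30 and 60 min.

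The median over all genes was -0.36, -0.47, -0.14, -0.17 and 0.25 with upper quartile factors and -0.61, -0.44, 0.15, 0.10 and 0.51 with library size alone. Among genes called, 81.1%, 55.7%, 72.6%, 53.6% and 49.2% were higher, against 62.8%, 42.9%, 58.0%, 49.0% and 57.2% with upper quartile factors and 46.3%, 45.0%, 78.8%, 66.5% and 68.2% with library size alone. Of the 30 genes of the wider list, 2 were lower after 30 min, against 4 in DESeq2 and with upper quartile factors, and 4 lower between 30 and 60 min, against 6 in DESeq2 and 2 with library size alone. Over all genes 1153 were lower after 30 min, against 1444 and 1629 in those settings. Between 30 and 60 min 1045 were lower, against 1149 in DESeq2 and 718 with library size alone. From 5 to 30 min 1 of the list was higher and 0 lower, against 2 and 4 in DESeq2, 1 and 3 with upper quartile factors and 3 and 0 with library size alone. Over all genes 684 were higher and 592 lower, against 931 and 860, 670 and 698, and 896 and 451. Limma on log2(FPKM + 1) tested 24 of the other genes and called 0, 1, 0, 0 and 2 of them higher and 0, 1, 0, 0 and 0 lower. Of all 6197 genes in that fit, 34, 216, 366, 70 and 733 were higher and 8, 235, 19, 5 and 29 lower. Of 36 mean levels, 21 moved by more than 1 SD on deposited FPKM, a shift that follows from the rescaling factor, the ratio of total to NCU counts. The depth of library I limits HSAF-30, since 3 counts are 2.87 CPM there.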
